A study of Homo sapiens with 2 samples.

Results

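The let-7 and miR-98 family was examined in small RNA libraries of MDA-MB-231-IV2-1 cells, a highly metastatic subline that was selected in mice from the human triple-negative breast cancer line MDA-MB-231. Its members were chosen by name, as the main strands let-7a to let-7i and miR-98. The naming rule uses no measured value, but the family was picked with earlier results of these data known. All 9 main strands were listed in both libraries, out of 425 mature miRNAs listed in either. The series holds 2 libraries, 1 per condition: cells transfected with a scrambled siRNA (N.C, the control) and cells transfected with pooled siRNAs against the long non-coding RNA LOC550643, both collected 48 h after transfection. The study asked which miRNAs change when LOC550643 is lost. The knockdown is transient and rests on a siRNA pool in 1 subline, and the level of LOC550643 itself in these RNA samples was not analysed here. With 1 library per condition no difference has a replicate check, no p-value was computed, and every interval below is a 95% exact interval of counting error only.

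A let-7 miRNA is cut from a hairpin transcript by Drosha and Dicer, and one strand, usually the 5p strand, is loaded into an Argonaute protein, where its seed (bases 2 to 8) pairs with target mRNAs. The family is known for restraining growth-promoting genes such as RAS, HMGA2 and MYC, for its low level in stem-like breast cancer cells, and for the block on its maturation by LIN28 proteins. Members that share a seed are expected to share many targets, so the summed level of the family is of interest beside the level of each member.

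The mature sequences show how close the members are, which bears on how reads can be told apart. They come from RefSeq (GRCh38.p14), which held all 9 members and 7 of the 8 listed minor strands. Capitals mark the seed, which is the same in every member.
hsa-let-7a-5p: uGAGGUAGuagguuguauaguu
hsa-let-7b-5p: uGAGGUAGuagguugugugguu
hsa-let-7c: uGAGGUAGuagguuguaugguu
hsa-let-7d-5p: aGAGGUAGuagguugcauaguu
hsa-let-7e-5p: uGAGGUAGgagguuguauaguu
hsa-let-7f-5p: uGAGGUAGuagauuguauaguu
hsa-let-7g-5p: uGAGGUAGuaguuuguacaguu
hsa-let-7i-5p: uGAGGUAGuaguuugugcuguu
hsa-miR-98-5p: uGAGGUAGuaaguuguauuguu
All are 22 nt long. Counted from the 5′ end and with the base of let-7a-5p given first, let-7c differs from let-7a-5p by A19G alone, let-7f-5p by G12A alone and let-7e-5p by U9G alone. Both A17G and A19G separate let-7b-5p from let-7a-5p. In let-7d-5p the changes are U1A and U16C, and in miR-98-5p they are G11A and A19U. Of the 36 pairs of members, 4 differ at 1 position and 10 at 2 positions, and the most distant pair differs at 6. As the first difference between let-7a-5p and let-7c is at position 19, their first 18 bases are identical. Among the listed miRNAs with a RefSeq sequence (383 of 425), no miRNA outside the 9 members carried the seed GAGGUAG.

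The deposited values are RPM, that is, reads scaled to the total of the library. Their low values lie on a ladder of whole reads, which places 189028 reads behind the N.C library (5.29 RPM per read) and about 491611 behind the knockdown library (2.03 RPM per read), so the knockdown values are the more precise. Most values were whole numbers of reads within 0.05 read, 87.2% in the N.C library and 87.5% in the knockdown library. The let-7 family differed from this share in the N.C library, where none of the 9 main strands was whole. The share covers all listed miRNAs, also those with few reads, and was not taken for abundant miRNAs alone. The value of let-7d-5p amounted to 85.50 reads there, that of miR-98-5p to 84.25 and that of let-7a-5p to 1723.54. In the knockdown library 6 of the 9 were fractional, among them let-7b-5p with 1033.33 reads. The sums of the 9 were whole in both libraries, 24872.00 and 60541.99 reads, and all 8 minor strands were whole. The fractions thus cancelled within the family. How the authors' tool counted a read that fitted several members is not given in the sources used here, and the number of such reads cannot be read from the remainders. The total of the family does not depend on that division, whereas the values of single members can.

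The family was led by let-7i-5p in both libraries. With each library rescaled to the same total, let-7i-5p was at 84599 RPM in the N.C library (83351 to 85865) and at 82910 RPM after knockdown (82140 to 83684), and it was the 4th most abundant of all miRNAs in each. The next member, let-7f-5p, was 3.44-fold below it in the N.C library and 4.11-fold below it in the knockdown library. The levels of the members spanned from 84599 RPM down to 446 RPM for miR-98-5p in the N.C library, and down to 238 RPM for let-7d-5p in the knockdown library.
The first 7 places were held by let-7i-5p, let-7f-5p, let-7a-5p, let-7g-5p, let-7c, let-7b-5p and let-7e-5p, in this order in both libraries. In the N.C library the intervals of let-7b-5p (1729 RPM) and let-7e-5p (1715 RPM) overlapped, and so did those of let-7d-5p (452 RPM) and miR-98-5p (446 RPM). In the knockdown library no neighbours in the order overlapped, and the last places were exchanged, with miR-98-5p at 379 RPM and let-7d-5p at 238 RPM. Levels of different miRNAs are compared here as RPM of products of the same length, and differences in how well each end was ligated during library preparation are not corrected.

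**Figure D1:**
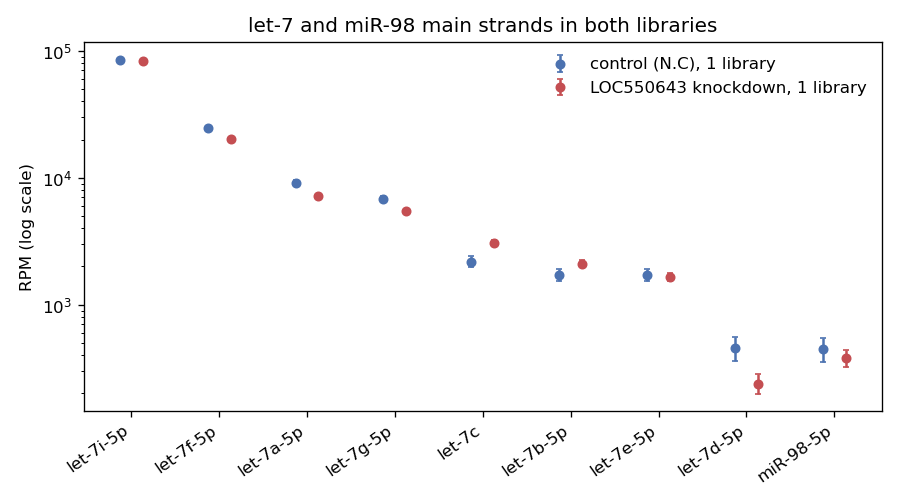
RPM of the 9 main strands (log axis) in the N.C library (blue) and the LOC550643 knockdown library (red), 1 library each, with 95% counting intervals as bars. The points fall from 84599 RPM for let-7i-5p to 446 RPM or less for miR-98-5p and let-7d-5p, and the libraries separate most for let-7d-5p (452 and 238 RPM) and let-7c (2179 and 3054 RPM).

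The family as a whole differed little between the libraries. Its total was 131579 RPM in the N.C library, which is 13.2% of all miRNA reads (13.01 to 13.31%), and 123169 RPM in the knockdown library, which is 12.3% (12.2 to 12.4%). The log2 ratio of knockdown over control was -0.10 (-0.12 to -0.07). This direction turned with the scaling: with a median-of-ratios scaling, under which all log2 ratios are higher by 0.20, the ratio was 0.10. That scaling uses every miRNA listed in both libraries, with no minimum level. Under it the 124 miRNAs averaging 100 RPM or more had a median log2 fold change of 0.11, against -0.09 with the library total. The direction of the family total was therefore not settled by these libraries. Without let-7i-5p the other 8 members summed to 46980 RPM in the N.C library and 40260 RPM in the knockdown library, a log2 ratio of -0.22 (-0.26 to -0.19), which was -0.02 with the median-of-ratios scaling.

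The members did not move together. Fold changes are given on the log2(RPM + 1) scale, as knockdown over control. In the knockdown library 7 of the 9 members were lower and 2 were higher, against 60.5% lower among the 124 miRNAs averaging 100 RPM or more, so the share of lower members (7 of 9) has to be read against a background that also leans downwards. With the median-of-ratios scaling 5 members were lower and 4 higher, and the background no longer leaned downwards, its median log2 fold change being 0.11 over the 124 miRNAs against -0.04 over the members. With the library total, the median log2 fold change was -0.24 over the 9 members, -0.09 over those 124 miRNAs and -0.20 over all 425. Under both scalings the median member was miR-98-5p, whose own difference was within counting error with the library total.

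The higher members were let-7c and let-7b-5p. The value of let-7c went from 2179 RPM (1974 to 2400) to 3054 RPM (2901 to 3212), a log2 fold change of 0.49 (0.33 to 0.65). That of let-7b-5p went from 1729 RPM (1548 to 1928) to 2102 RPM (1975 to 2234), a log2 fold change of 0.28 (0.10 to 0.46). For both members the RPM intervals of the libraries did not overlap. Both were higher under every scaling tried. Each scaling shifts all log2 ratios by the same amount, from -0.03 to 0.20, so none could have turned these 2 signs. Among the 124 miRNAs ordered from the lowest to the highest log2 fold change, let-7c was in place 108 and let-7b-5p in place 96.

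The lowest value relative to the control was that of let-7d-5p, which went from 452 RPM (359 to 556) to 238 RPM (197 to 285). This is 1.90-fold lower, a log2 fold change of -0.92 (-1.33 to -0.50), and it rests on 85.5 and 117.0 reads. It was in place 11 from the lowest of the 124. The RPM intervals did not overlap, and under the median-of-ratios scaling the log2 fold change was -0.73.

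The 3 abundant members let-7a-5p, let-7f-5p and let-7g-5p were lower by similar amounts. For let-7a-5p the values were 9118 and 7155 RPM (log2 fold change -0.35, -0.43 to -0.27). For let-7f-5p they were 24591 and 20191 RPM (-0.28, -0.33 to -0.23), and for let-7g-5p 6749 and 5482 RPM (-0.30, -0.40 to -0.20). Under the median-of-ratios scaling these 3 differences shrank to -0.15, -0.09 and -0.10 and kept their sign.
The remaining members were nearly level. For let-7i-5p the log2 fold change was -0.03 (-0.06 to -0.0027), and for let-7e-5p, at 1715 and 1658 RPM, it was -0.05 (-0.24 to 0.14). Both signs turned under the median-of-ratios scaling, to 0.17 and 0.15. For miR-98-5p the log2 fold change was -0.24 (-0.61 to 0.16), so that a difference was not detectable at this depth.

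None of the 9 members differed by more than 2-fold, against 45.2% of all 425 miRNAs and 8.06% of the 124 averaging 100 RPM or more, a class to which all 9 belong. Only 326 of the 425 were listed in both libraries. A missing miRNA counts as 0, and 1 read against 0 already exceeds 2-fold, so the 45.2% is in part set by the floor. The 8.06% is the closer comparison, and with 9 members a count of none is near it. Beyond 1.5-fold only let-7d-5p was counted among the members (25.0% of the 124). Beyond 1.2-fold, 6 of the 9 were counted (65.3% of the 124), the others being let-7e-5p, let-7i-5p and miR-98-5p. The counting interval of the log2 fold change left out 0 for 7 of the 9 members and for 50.8% of the 124. Abundant miRNAs have narrow counting intervals, and the spread between cultures is not in them.

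**Figure D2:**
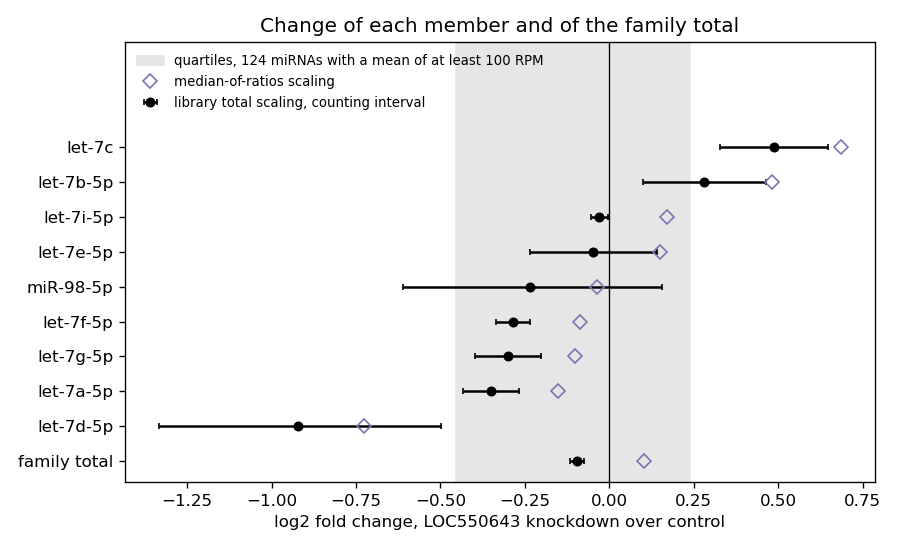
Log2 fold change of knockdown over control for the 9 members and the family total (black points, 95% counting intervals), with the same values under median-of-ratios scaling (open diamonds) and the quartiles of the 124 miRNAs averaging 100 RPM or more (grey band, -0.45 to 0.24). Only let-7c and let-7b-5p lie above the band and only let-7d-5p below it with the total scaling, and the diamonds of let-7i-5p, let-7e-5p and the family total are on the other side of 0 from their points.

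Shares within the family are free of the scaling between libraries. The share of let-7i-5p was 64.3% of the family total in the N.C library (63.7 to 64.9%) and 67.3% in the knockdown library (66.9 to 67.7%), a gain of 3.02 percentage points. The share of let-7f-5p was 18.7% (18.2 to 19.2%) and 16.4% (16.1 to 16.7%). The share of let-7a-5p went from 6.93% to 5.81% and that of let-7g-5p from 5.13% to 4.45%.
The small shares of let-7c and let-7b-5p were larger in the knockdown library, 1.66% and 2.48% for let-7c and 1.31% and 1.71% for let-7b-5p. Those of let-7e-5p (1.30% and 1.35%), miR-98-5p (0.339% and 0.307%) and let-7d-5p (0.344% and 0.193%) made up the rest. In all, 4.28 percentage points of the family total were held by different members in the knockdown library than in the N.C library. Among the 8 members other than let-7i-5p, let-7c held 4.64% in the N.C library (4.21 to 5.10%) and 7.59% in the knockdown library (7.22 to 7.96%), the largest gain of the 8.

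**Figure D3:**
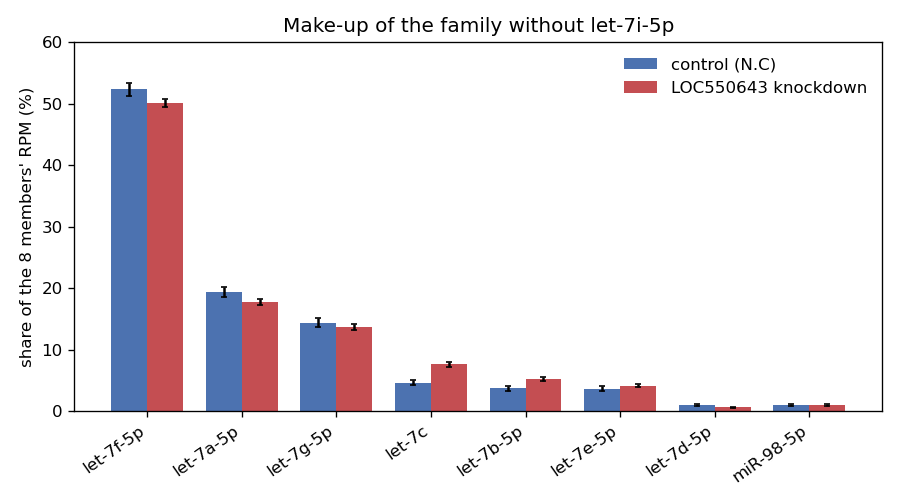
Share of each of the 8 members other than let-7i-5p in their summed RPM (bars from 0, 95% counting intervals), in the N.C library (blue) and the LOC550643 knockdown library (red). The bar of let-7c grows from 4.64% to 7.59% and that of let-7b-5p from 3.68% to 5.22%, while those of let-7f-5p, let-7a-5p and let-7g-5p are shorter in the knockdown library.

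Ratios between the closest pairs were also taken within each library. The ratio of let-7c to let-7a-5p, which differ by A19G, was 0.239 in the N.C library (0.214 to 0.266) and 0.427 in the knockdown library (0.401 to 0.454), or 1.79 times as large. The ratio of let-7b-5p to let-7a-5p was 0.190 (0.168 to 0.214) and 0.294 (0.274 to 0.315). In contrast, the ratio of let-7f-5p to let-7a-5p, which differ by G12A, was 2.70 (2.55 to 2.85) and 2.82 (2.72 to 2.93), and these intervals overlapped. A read that ended before position 19 would fit let-7a-5p and let-7c alike. Read lengths were not analysed here, and the part of such reads in this ratio was not tested.

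The minor strands of the hairpins were scarce, apart from let-7d-3p. Together the 8 listed minor strands held 40 reads in the N.C library (212 RPM, 151 to 288) and 96 in the knockdown library (195 RPM, 158 to 238), which is 0.161% and 0.158% of the reads of both arms. The strand let-7d-3p alone held 28 and 50 of these reads. Its mature sequence, shown because it is the abundant 3p product of the family, follows with bases 2 to 8 in capitals.
hsa-let-7d-3p: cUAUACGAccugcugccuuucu
Of the reads of the let-7d hairpin, 24.7% came from let-7d-3p in the N.C library (17.1 to 33.8%) and 29.9% in the knockdown library (23.1 to 37.5%). For the other main strands with a listed minor strand, the minor strands held at most 1.06% of the reads of both arms in either library, with the hairpins of let-7a and of let-7f pooled. The value of let-7d-3p went from 148.1 RPM (98.4 to 214) to 101.7 RPM (75.5 to 134), a log2 ratio of -0.54 (-1.24 to 0.18). Both arms of let-7d were at lower RPM after knockdown, and for let-7d-3p the difference was within the counting intervals.
For let-7a-3p there were 3 reads in the N.C library and 18 in the knockdown library (15.9 and 36.6 RPM), a log2 ratio of 1.21 (-0.57 to 3.61). The strand let-7b-3p had 1 and 7 reads, with a log2 ratio of 1.43 (-1.53 to 6.92). For let-7f-1-3p there were 2 and 10 reads, and for let-7a-2-3p 3 and 7 reads. None of these 4 differences exceeded the counting intervals. Both libraries held at most 3 reads of let-7e-3p, let-7f-2-3p and miR-98-3p, and no ratio is given for them. The strands let-7f-2-3p in the knockdown library and miR-98-3p in the N.C library had no row and count as 0. Taken as 3 reads, the limit that a count of 0 allows is 6.10 RPM for the former and 15.9 RPM for the latter, and the exact intervals used elsewhere reach 7.505 RPM and 19.51 RPM.

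The hairpins of the family lie in several transcription units (GRCh38, RefSeq hairpins, GENCODE 29 genes on the same strand). The hairpins let-7a-1, let-7f-1 and let-7d lie in a row on the plus strand of chromosome 9 (chr9:94175957-94178920), in an intron of a long intergenic RNA gene. The hairpins let-7f-2 and miR-98 lie on the minus strand of chromosome X (chrX:53556223-53557274), in an intron of the ubiquitin ligase gene HUWE1. On chromosome 22, let-7a-3 and let-7b (chr22:46112749-46113768, plus strand) overlap an exon of the long non-coding host gene MIRLET7BHG. The hairpin of let-7g is in an intron of WDR82 (chr3:52268278-52268361, minus strand), and that of let-7i in an intron of a long intergenic RNA gene (chr12:62603686-62603769, plus strand). As let-7a-5p is made from 3 hairpins and let-7f-5p from 2, the hairpin that gave a read of either cannot be told apart.
On chromosome 9, the products let-7a-5p, let-7f-5p and let-7d-5p were all lower in the knockdown library, by unequal amounts. The ratio of let-7d-5p to let-7f-5p was 0.0184 in the N.C library (0.0146 to 0.0227) and 0.0118 in the knockdown library (0.0097 to 0.0141), and these intervals did not overlap. The products let-7b-5p on chromosome 22 and let-7c on chromosome 21 were the higher ones. The lower let-7a-5p is, however, also made from let-7a-3, which lies beside let-7b on chromosome 22.

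At 3 places a let-7 hairpin shares its host gene with hairpins of the miR-99/100 and miR-125 families. This allows products of a host gene to be set side by side, except let-7a-5p and miR-125b-5p, which are also made elsewhere. In an intron of MIR99AHG on chromosome 21, the hairpin of let-7c (chr21:16539828-16539911, plus strand) lies 658 bases from that of miR-99a. While let-7c was higher in the knockdown library (log2 fold change 0.49), miR-99a-5p was nearly level at 1153 and 1133 RPM (-0.03, -0.25 to 0.21), and the intervals of let-7c and miR-99a-5p did not overlap. For miR-125b-2-3p, from the same host, the log2 fold change was 0.01 (-0.95 to 1.05), too wide to compare. The study reports, by real-time PCR, that this miRNA was higher after LOC550643 knockdown, and concludes that LOC550643 sponges it. The 13 and 34 reads here leave both a rise and a fall within the counting interval.
In an intron of SPACA6 on chromosome 19, the hairpins of miR-99b, let-7e (chr19:51692786-51692864, plus strand) and miR-125a lie with 104 and 389 bases between them. The log2 fold changes of let-7e-5p (-0.05), miR-99b-5p (-0.09, -0.17 to -0.01) and miR-125a-5p (0.03, -0.32 to 0.40) had overlapping intervals. The other arm of miR-99b, miR-99b-3p, went from 1127 to 1558 RPM (0.47, 0.25 to 0.69). The minor strand miR-125a-3p had 1 read in the N.C library and 17 in the knockdown library (2.50, 0.03 to 8.09).
In an intron of MIR100HG on chromosome 11, the hairpin of let-7a-2 (chr11:122146522-122146593, minus strand) lies 5635 bases from that of miR-100. The log2 fold change of miR-100-5p was -0.51 (-0.53 to -0.49), below that of let-7a-5p, which is also made on chromosomes 9 and 22. For miR-125b-1-3p the log2 fold change was 0.70 (0.43 to 0.98). For miR-125b-5p, which is made from hairpins on chromosomes 11 and 21, it was -0.19 (-0.38 to 0.0034), and miR-100-3p had no row in the N.C library and 3 reads in the knockdown library. With the median-of-ratios scaling the signs of miR-99a-5p, miR-99b-5p and miR-125b-5p turned as well, to 0.17, 0.11 and 0.01, while the distances between products stayed as given. Products made from 1 unit alone thus differed by more than counting error on chromosome 11 (miR-100-5p and miR-125b-1-3p) and chromosome 21 (let-7c and miR-99a-5p). The pair on chromosome 11 sets the 5p strand of a hairpin against the 3p strand of another. Between the hairpins of let-7a-2 and miR-125b-1 lie 46677 bases of MIR100HG. The part of strand choice in this difference was not tested. On chromosome 19 the interval of miR-99b-3p lay above that of let-7e-5p.

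**Figure D4:**
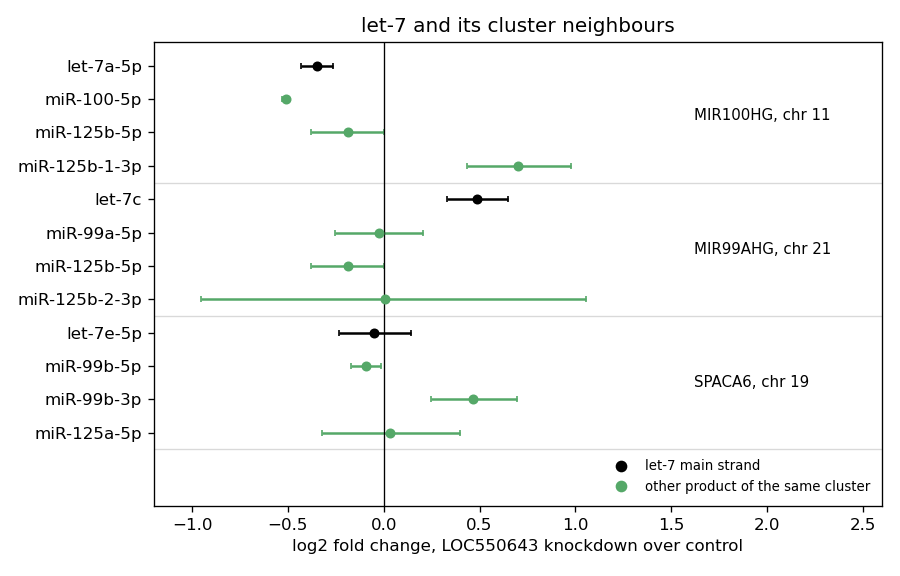
Log2 fold change of knockdown over control, with 95% counting intervals, for the let-7 main strand (black) and the other products with more than 3 control reads (green) of the 3 host genes shared with miR-99/100 and miR-125 hairpins. The point of let-7c (0.49) lies to the right of that of miR-99a-5p (-0.03), and let-7e-5p lies beside miR-99b-5p and miR-125a-5p.

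Set beside 3 other abundant families, the let-7 family was close to the miR-30 family in its total. The summed miR-30 main strands (5 members) went from 81898 to 76182 RPM, a log2 ratio of -0.10 (-0.13 to -0.08) that also turned, to 0.09, with the median-of-ratios scaling. The miR-148 and miR-152 total was higher in the knockdown library (log2 ratio 0.31, 0.29 to 0.33) and the miR-99 and miR-100 total lower (-0.48, -0.50 to -0.46), by more than the let-7 total in either direction. The distance between the highest and the lowest log2 fold change among the members was 1.41 in the let-7 family, 1.04 in the miR-30 family, 0.70 in the miR-148 and miR-152 family and 0.49 in the miR-99 and miR-100 family. The let-7 family has the most members of the 4, which widens this distance, and whether the families differ could not be tested with 1 library per condition. All 5 miR-30 members were lower in the knockdown library (4 of 5 with the median-of-ratios scaling, where miR-30a-5p was at 0.18). The let-7 family had members on both sides under either scaling, and so did the miR-148 and miR-152 family. There miR-148a-3p was at 0.32 and miR-148b-3p at -0.38, or 0.52 and -0.18 with the median-of-ratios scaling. The miR-99 and miR-100 members were all lower, but lay on both sides with the median-of-ratios scaling. The miR-30 sums were whole in both libraries as well, at 15481.00 and 37446.00 reads.

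The study looked for miRNAs that bind LOC550643, so its 3 isoforms (V1, V2 and V3) were searched for the site of the let-7 seed. The reverse complement of bases 2 to 8 is CTACCTC, that of bases 2 to 7 is TACCTC and that of bases 3 to 8 is CTACCT, and each shorter site is part of the first. Only the strand of the transcript was searched, as a miRNA pairs with the RNA itself. No isoform held any of the 3. For comparison, 5.86% of the 2370 mature miRNAs of the RefSeq table had a match to their bases 2 to 8 in V1 (718 nt), 4.77% in V2 (581 nt) and 3.71% in V3 (476 nt). For bases 2 to 7 the shares were 18.8%, 15.6% and 12.6% in V1, V2 and V3. For bases 3 to 8 they were 18.4%, 15.3% and 12.3%. The absence of a match says only that these letters are not in these isoforms.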

How the data were processed

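Small RNA from MDA-MB-231-IV2-1 cells was sequenced 48 h after transfection with a scrambled siRNA or pooled LOC550643 siRNAs, 1 library per condition. Per the study's methods, the authors prepared the libraries with a NEBNext kit and used a tool of their own to assign reads to miRNAs. The deposited values are RPM, 1 table per library. The submitters' processing notes name FastQC, cutadapt and hg38. The aligner, the miRNA release, filters and the handling of reads that fit several miRNAs are not given in the sources used here. The labels name more than one Illumina instrument.

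Each library was rescaled to the same total, a missing miRNA was set to 0, and log2 fold changes used a pseudocount of 1 RPM. Depth was found by taking the lowest value shared by 10 or more miRNAs as 1 read and refining the library size until most values were whole reads within 0.05 read. Because not all were whole, no count test was run. Intervals are 95% Clopper-Pearson intervals of reads rounded to whole numbers (for ratios, of the share of one count in both). They treat reads as independent and hold no variation between cultures. Up to 3 reads counted as the floor. Depth fit and intervals were run on simulated libraries. Reads were drawn there independently, as the intervals assume, and the intervals were scored on whole counts. The simulation therefore cannot speak to variation between cultures or to reads divided among members. The alternatives covered the scaling, the pseudocount, the fold limit and which strands enter the total.

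The members and lists were chosen with earlier results of these data known: the 9 members, their listed minor strands, products of hairpins in the same clusters, other miRNAs with the same seed, and 3 comparison families. Sequences are from RefSeq, and hairpins were placed in GENCODE 29 genes. Isoform sequences are those of the study's supplement. Python 3.11.15, numpy 2.4.6, scipy 1.17.1 and matplotlib 3.10.9 were used.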

Additional observations from a re-analysis of the deposited data

How the results depend on the processing

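No paired analysis was possible because there is only 1 library per condition, and no replicate could be left out. The direction of the family total depended on the scaling between libraries: its log2 ratio was -0.10 with the library total, 0.10 with median-of-ratios scaling and 0.094 with 75th-percentile scaling. It was -0.13 when the total left out the 5 most abundant miRNAs, and -0.22 for the sum without let-7i-5p, which is also the most abundant member. The log2 fold change of let-7i-5p turned to 0.17 with median-of-ratios and 0.16 with 75th-percentile scaling, and that of let-7e-5p to 0.15 and 0.14 in the same order. These 2 scalings raise every log2 ratio by 0.20 and 0.19, by construction, and use all miRNAs listed in both libraries with no minimum level. Of 63 values of single members under 7 alternatives, 4 changed sign, which are the 4 just given. The number of members beyond the fold limit was 0 at 2-fold under every scaling, 1 at 1.5-fold and 6 at 1.2-fold. The median over the members kept its sign, from -0.27 to -0.04. This median is the value of miR-98-5p, whose counting interval included 0 with the library total, so its sign is not settled. The part of the family total that changed between members was 4.31 percentage points, in place of 4.28, when minor strands entered it. Depth limits miR-98-5p, let-7d-5p and the minor strands, which rest on at most 186.1 reads in each library.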

Other observations

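Summed by seed over the 383 listed miRNAs with a RefSeq sequence, the let-7 seed GAGGUAG was the 4th most abundant of 315 seeds in both libraries. Ahead of it in the N.C library were the seeds CAGUGCA of miR-148a-3p and miR-148b-3p (199098 RPM), ACCCGUA of miR-99 and miR-100 (187454 RPM) and AGCUUAU of miR-21 (176112 RPM). In these sums the let-7 seed is spread over 9 listed miRNAs, against 2, 3 and 1 for the others. The sum for CAGUGCA does not hold miR-152, which is listed without an arm in its name. With miR-152, the miR-148 and miR-152 family held 199410 RPM in the N.C library. Which arm was used for names without one was not tested, so the number of miRNAs per seed can be too low. Listed miRNAs without a sequence, which held 5.60% of the RPM in the N.C library and 6.65% in the knockdown library, are not in these sums.

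The base at position 19 was looked at after the values of the members had been seen. The 2 members with G there, let-7b-5p and let-7c, were the 2 that were higher in the knockdown library (log2 fold changes 0.28 and 0.49). The 5 members with A there ranged from -0.92 to -0.05 and the 2 with U from -0.24 to -0.03. The members share most of their sequence, so they are not independent, and no test was made.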
